A study of Caenorhabditis elegans with 12 samples.

Results

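The genes described here encode proteins that hold meiotic chromosomes together in C. elegans: syp-1, syp-2, syp-3, him-3, htp-1, htp-2, htp-3 and rec-8. They were taken by symbol from the annotation of the arrays. All 8 were found, of 17675 genes, on 9 of 21541 probe sets (him-3 has 2, every other gene has 1). RNA came from lin-54(n2990) and wild-type embryos, collected from young adults grown at 25°C, and from lin-54(n3423) and wild-type germlines, dissected 24 hours after the L4 stage from adults grown at 20°C, with 3 Affymetrix arrays in each group and 12 in all. All strains are in the N2 background. The n2990 allele is a missense change in the second of the DNA-binding tesmin domains of LIN-54 and leaves some function, whereas n3423 is a deletion with no detectable product that was kept over a balancer because homozygotes are sterile. Homozygous n3423 germlines therefore developed in offspring of heterozygous mothers. The dissected piece ran from the mitotic tip to late pachytene, and its RNA, unlike that of embryos, was linearly amplified once and labelled with another kit.

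During meiotic prophase each pair of sister chromatids is organized along a protein axis built on cohesin, and the axes of homologous chromosomes are then joined by the synaptonemal complex. REC-8 is a meiosis-specific kleisin, the subunit that closes the cohesin ring. HTP-3, HIM-3, HTP-1 and HTP-2 are HORMA-domain proteins of the axis, and SYP-1, SYP-2 and SYP-3 are coiled-coil proteins of the central region that depend on one another to load between the axes. LIN-54 is a DNA-binding subunit of DRM, a complex known to keep a number of germline genes low in somatic cells.

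All 9 probe sets had a higher mean in lin-54(n2990) embryos than in wild-type embryos. Transcripts of syp-1, syp-3, htp-1 and htp-2 rose by at least 1.5-fold with a p of 0.01 or less before adjustment (limma), those of syp-1 by 5.09-fold and the others by 1.90-fold to 2.33-fold. These 4 of 9 probe sets compare with 3.38% of all probe sets, and 0 of 9 fell, against 1.53% of all. The probe sets of him-3, syp-2 and htp-3 had changes of similar size but wider errors, and rec-8 had the smallest change. After Benjamini-Hochberg adjustment over all probe sets, 1 of 9, that of syp-1, was under 0.05, as were 57 of 21541. The median log2 change of the 9 probe sets was 1.13 (0.22 to 2.35), against 0.00 over all probe sets, of which the quartiles were -0.16 and 0.18. In RNA of whole embryos, more cells that hold a transcript and more transcript per cell cannot be told apart. Log2 values are given throughout, so that a difference of 1 is a doubling.

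**Figure D1:**
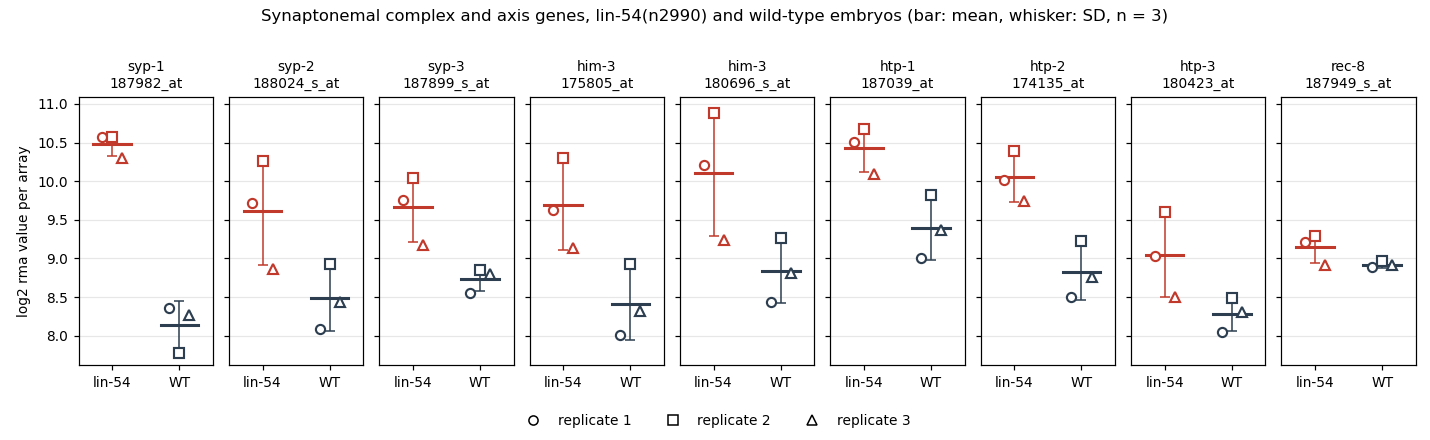
Log2 rma values (y axis) of the 9 probe sets in 3 lin-54(n2990) and 3 wild-type (WT) embryo arrays (x axis), with symbols for the replicate numbers, bars for means and whiskers for SD. The mutant values of syp-1 lie between 10.30 and 10.57, above wild-type values of 7.78 to 8.37, whereas those of rec-8 overlap.

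Among the central region genes, syp-1 (chromosome V) had log2 values of 10.57, 10.57 and 10.30 in the 3 mutant embryo arrays, against 8.37, 7.78 and 8.26 in wild-type. The lowest mutant array lay 1.94 above the highest wild-type array. The difference was 2.35 (SE 0.18, 95% interval 1.92 to 2.78, adjusted p = 0.0146 from limma), the 9th largest increase of all probe sets, and the gene stayed called when any 1 array was left out. It was detected on 3 of 3 mutant arrays and on 2 of 3 wild-type arrays, being absent on wild-type replicate 2.

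syp-3 (chromosome I) had log2 values of 9.76, 10.04 and 9.18 in mutant embryos and 8.55, 8.85 and 8.80 in wild-type embryos. The groups did not overlap, and the third mutant array was the closest to wild-type. The change was 0.93 (SE 0.23, adjusted p = 0.115 from limma), and it was called in only 1 of the 6 fits that left out an array, that without mutant replicate 3, where it was 1.17. Without any of the other 5 arrays it was 0.74 to 0.99 and no longer passed.

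syp-2 (chromosome V) had log2 values of 9.72, 10.26 and 8.87 in mutant embryos and 8.08, 8.93 and 8.44 in wild-type embryos. Mutant replicate 3 lay just below wild-type replicate 2, so the groups overlapped. The mean difference of 1.13 (SE 0.39, 95% interval 0.18 to 2.08, adjusted p = 0.160 from limma) did not pass. Of the 6 fits that left out an array it was called in 1, without mutant replicate 3 (1.502), and it was also called with array weights, by which limma gives noisier arrays less influence (1.33).

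The axis genes htp-1 and htp-2 lie on chromosome IV and encode close paralogs, so that probes for one could also capture transcripts of the other, which was not tested. htp-2 had log2 values of 10.02, 10.39 and 9.74 in mutant embryos, all at least 0.51 above the wild-type values of 8.496, 9.23 and 8.77. htp-1 had 10.51, 10.67 and 10.09 in mutant embryos and 9.002, 9.83 and 9.37 in wild-type embryos, again with no overlap. The changes were 1.22 (SE 0.24, adjusted p = 0.0979 from limma) for htp-2 and 1.02 (SE 0.25, adjusted p = 0.113) for htp-1. htp-2 lost its call without wild-type replicate 3 (1.19). htp-1 lost it without mutant replicates 1 or 2 or wild-type replicates 1 or 3 (0.83 to 1.01).

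him-3 (chromosome IV), whose product loads on the axis with the help of HTP-3, was measured by both of its probe sets. On probe set 175805_at its log2 values were 9.63, 10.30 and 9.14 in mutant embryos and 8.003, 8.93 and 8.32 in wild-type embryos, with no overlap. On probe set 180696_s_at they were 10.21, 10.88 and 9.24 in mutant embryos and 8.44, 9.27 and 8.82 in wild-type embryos, where mutant replicate 3 fell just below wild-type replicate 2. Both probe sets gave a mean difference of 1.27 and neither passed (SE 0.36 and adjusted p = 0.129 for 175805_at, SE 0.44 and adjusted p = 0.160 for 180696_s_at, limma). With the replicate number as a block 175805_at was called (adjusted p = 0.0574, limma), which made 5 of 9 probe sets higher, beside 4.27% of all in that fit. Without mutant replicate 3 both probe sets were called (1.55 and 1.70), as both were with array weights (1.34 and 1.46), and 175805_at was called without wild-type replicate 2 (1.53).

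htp-3 (chromosome I), whose product is needed to bring the other HORMA-domain proteins to the axis, had log2 values of 9.03, 9.60 and 8.51 in mutant embryos and 8.04, 8.49 and 8.30 in wild-type embryos. The gap between the groups was 0.02. The mean difference of 0.77 (SE 0.29, adjusted p = 0.173 from limma) did not pass. It was called without mutant replicate 3 (1.04) and with array weights (0.80), and was 0.49 without mutant replicate 2. The cohesin gene rec-8 (chromosome IV) had log2 values of 9.22, 9.30 and 8.92 in mutant embryos and 8.88, 8.96 and 8.91 in wild-type embryos, which overlapped. Its mean difference was 0.22 (SE 0.11, 95% interval -0.05 to 0.50, adjusted p = 0.267 from limma), and it was called in none of the 6 fits that left out an array. At a p of 0.05 or less before adjustment, 8 of 9 probe sets were higher in mutant embryos, all but rec-8, beside 12.5% of all probe sets. In 6 of 9 every mutant array lay above every wild-type array, as in 15.2% of all. For such a single gene the exact permutation test of 3 arrays against 3 cannot go below p = 0.1.

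**Figure D2:**
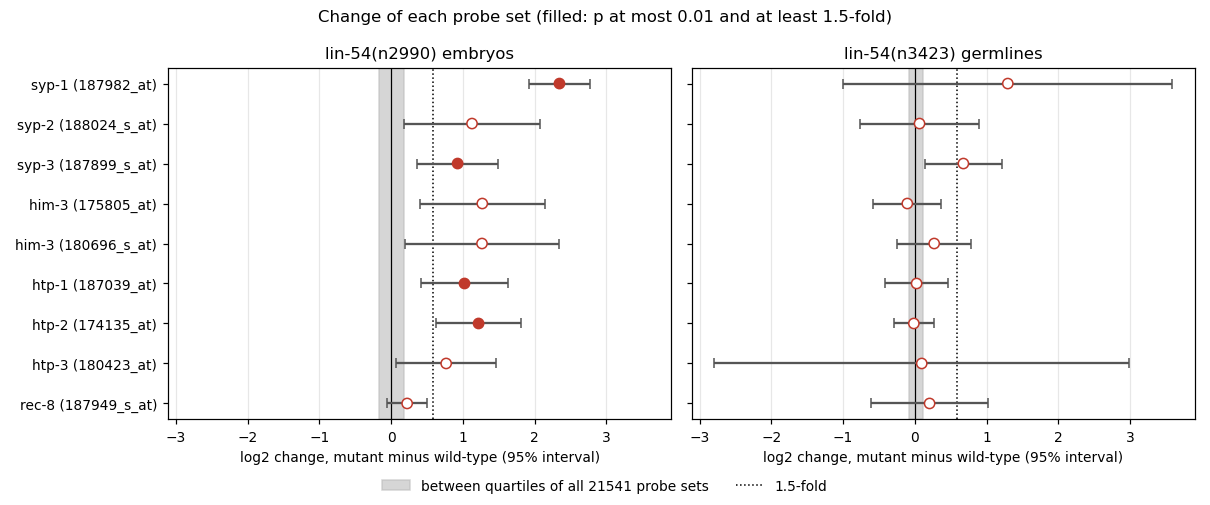
Log2 change, mutant minus wild-type (x axis, with 95% intervals from limma), of the 9 probe sets (y axis) in embryos and germlines. Filled points passed p of at most 0.01 and 1.5-fold (dotted line), which 4 did in embryos and 0 in germlines, and the grey band runs between the quartiles of all 21541 probe sets.

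The mutant embryo arrays were not alike. Over all probe sets, mutant replicate 3 correlated at 0.988 to 0.989 with the wild-type arrays. Its correlation was 0.991 with mutant replicate 1 but 0.959 with mutant replicate 2. Mutant replicate 2 correlated at 0.928 to 0.944 with the wild-type arrays. Mutant replicate 2 was the highest and replicate 3 the lowest on 9 of 9 probe sets, an order held by 32.8% of all probe sets. In wild-type embryos replicate 2 was the highest and replicate 1 the lowest on 8 of 9, with syp-1 as the exception. How many of all probe sets held that wild-type order was not counted. Averaged over the 8 genes, the arrays stood at 9.84, 10.18 and 9.35 in mutant embryos and at 8.46, 8.89 and 8.68 in wild-type embryos. The spread of syp-1 within mutant embryos (SD 0.15) was the smallest of the 9 probe sets there, and that of him-3 on 180696_s_at (SD 0.82) the largest.

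Lists of genes that mark other cells or stages moved on the same arrays. A list of 10 germ cell and P granule genes (15 probe sets) had mean log2 values of 9.64, 10.09 and 9.13 in mutant embryos, against 8.80, 9.23 and 8.81 in wild-type embryos. All 15 probe sets had higher means, with a median change of 0.62, and 2 of 15, both of glh-1, a P granule helicase gene, were called (1.07 and 1.12), beside 3.38% of all probe sets. A list of 17 maternally supplied RNAs (26 probe sets) stood at 10.43, 10.94 and 9.74 in mutant embryos and at 9.37, 10.02 and 9.49 in wild-type embryos. There, 24 of 26 means were higher with a median of 0.66, and 2 of 26 were called, both of the eggshell gene cpg-2 (2.11 and 2.20), against the same share of all. In the opposite direction, 11 genes of late embryonic differentiation (28 probe sets) stood at 9.18, 8.37 and 9.50 in mutant embryos and at 9.96, 9.73 and 9.87 in wild-type embryos. Their median was -0.74, 2 of 28 means were higher, and 2 of 28 fell, both of the muscle tropomyosin gene lev-11 (-1.45 and -0.87), beside 1.53% of all. Among the mutant arrays, the germ cell and maternal lists were likewise highest in replicate 2 and lowest in replicate 3, and the late list was the reverse. The sperm list (5 probe sets) was detected on no array of either tissue. The part of embryo stage or of germ cell content in the changes of the 8 genes was not tested.

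**Figure D3:**
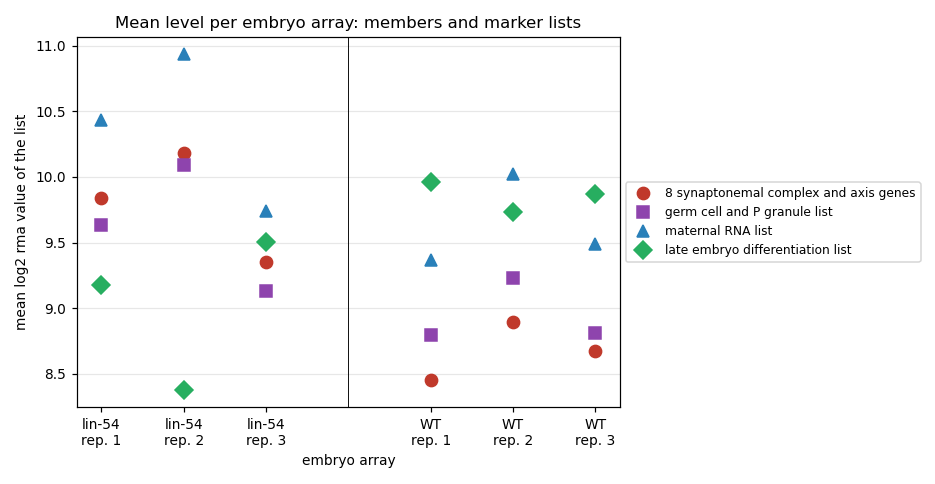
Mean log2 rma value (y axis) of the 8 synaptonemal complex and axis genes and of 3 marker lists on each embryo array (x axis), lin-54(n2990) at the left and wild-type (WT) at the right. Mutant replicate 2 has the highest germ cell, maternal and member values (10.09, 10.94 and 10.18) and the lowest late differentiation value (8.37).

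Other genes of meiotic chromosome pairing were counted in the same way in embryos, where 3.38% of all probe sets were called higher. The remaining central region genes are syp-4, syp-5 and syp-6, with log2 changes of 1.30, 1.12 and 1.03. Only syp-6 passed (SE 0.25, adjusted p = 0.113 from limma), not so with the replicate number as a block (adjusted p = 0.102), and syp-5 was detected on no embryo array. Of 10 further cohesin and axis genes (13 probe sets), 1 rose: lab-1, which protects sister cohesion on the long arm of the paired chromosomes (1.37, SE 0.29, adjusted p = 0.102). The median of that list was 0.22, with a range of -0.12 to 1.37. Of 9 pairing and synapsis genes (13 probe sets, median 0.57), 2 rose on 1 probe set each: zim-2, which encodes a zinc finger protein of the chromosomal pairing centers (1.43, SE 0.31), and sun-1, which encodes a nuclear envelope protein that links chromosome ends to the cytoskeleton (0.93, SE 0.25). Of 17 recombination genes (23 probe sets, median 0.47), 1 rose, spo-11, whose product makes the meiotic double-strand breaks (1.22, SE 0.29, adjusted p = 0.112), and it lost its call with the replicate number as a block. A count of 1 of 23 is near the share of all probe sets. No probe set of these 4 lists passed in the lower direction, at a background of 1.53%.

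In germlines, where these genes act, none of the 9 probe sets passed in the lin-54(n3423) comparison, 0 of 9 higher at a background of 0.0696% and 0 of 9 lower at 0.371%, nor did any with the replicate number as a block (0.297% of all higher). All adjusted p-values of the 9 probe sets were 1.00 (limma), and none of 21541 probe sets was under 0.05, with a lowest adjusted p of 0.214 and 539 probe sets at 0.05 or less before adjustment. The median log2 change of the 9 was 0.10 (-0.10 to 1.30), against 0.02 over all probe sets. lin-54 itself had log2 values of 8.88, 8.14 and 8.18 in mutant germlines, where it was detected on no array, against 9.68, 11.01 and 11.02 in wild-type germlines, where it was detected on all 3. In embryos, where n2990 is a missense allele and the level is no check of the labels, lin-54 averaged 10.53 ± 0.17 in mutants and 10.10 ± 0.09 in wild-type (SD, n = 3 each). Whether the changes in embryos and in germlines differ was not tested, since allele, temperature, RNA amplification and normalization differ with the tissue.

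The first array of each genotype differed from the rest in germlines. Their correlation with arrays 2 and 3 of the same genotype was 0.928 to 0.933, while they correlated at 0.975 with each other and arrays 2 and 3 of a genotype at 0.984 to 0.988. The separation was wide for htp-3, which had log2 values of 7.64, 10.22 and 10.29 in mutant germlines and 7.13, 10.31 and 10.42 in wild-type germlines. The value of 7.13, on wild-type array 1, was called absent. Its mean difference of 0.10 carried an SE of 1.17 and a 95% interval of -2.79 to 2.99, whereas the SE was 0.16 with the replicate number as a block, and the gene was not called in either fit. rec-8 was undetected on both arrays numbered 1 and had log2 values of 9.34, 10.16 and 10.37 in mutant germlines, against 9.33, 9.88 and 10.04 in wild-type germlines (difference 0.21, SE 0.33, or 0.10 with the block).

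syp-1 had log2 values of 8.67, 11.08 and 11.50 in mutant germlines and 7.89, 10.15 and 9.32 in wild-type germlines. The value of 7.89, on wild-type array 1, was called absent. Each mutant array was above the wild-type array of the same number, by 0.78, 0.93 and 2.18, yet the groups overlapped. Over all probe sets germline arrays 2 and 3 did not pair by number, which limits the reading of these values and of the replicate block. The difference of 1.30 had an SE of 0.92 (0.31 with the block, adjusted p = 0.510) and did not pass in either fit. Leaving out 1 array gave 0.68 (without wild-type replicate 1) to 2.17 (without mutant replicate 1). With both arrays numbered 1 left out it was 1.55 (SE 0.32) and was called (adjusted p = 0.267 from limma), on 2 arrays against 2. syp-3 had log2 values of 10.54, 10.09 and 10.18 in mutant germlines and 9.22, 9.89 and 9.67 in wild-type germlines. It was the 1 probe set of 9 whose mutant arrays all lay above the wild-type arrays, beside 4.02% of all, and the 1 of 9 higher at a p of 0.05 or less before adjustment, beside 0.831% of all. Its difference was 0.68 (SE 0.22, 95% interval 0.14 to 1.22, adjusted p = 1.00 from limma), which passed only after a further quantile normalization of the deposited values (0.62, SE 0.16).

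**Figure D4:**
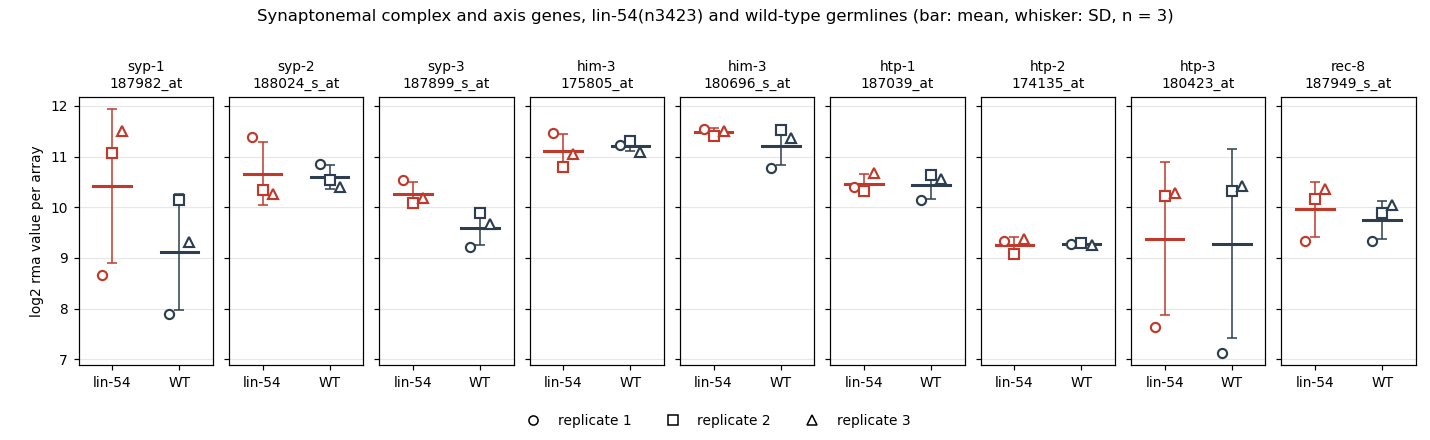
Log2 rma values (y axis) of the 9 probe sets in 3 lin-54(n3423) and 3 wild-type (WT) germline arrays (x axis), with symbols for the replicate numbers, bars for means and whiskers for SD. For htp-3 both arrays numbered 1 (7.64 in the mutant and 7.13 in wild-type) lie far below the other 4, and syp-3 is the probe set whose groups do not overlap.

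The remaining germline values were those of htp-1, htp-2, him-3 and syp-2. htp-2 averaged 9.26 ± 0.15 in mutant germlines and 9.28 ± 0.01 in wild-type germlines (SD, n = 3 each), with a 95% interval of the log2 difference of -0.29 to 0.26. htp-1 averaged 10.46 ± 0.19 in mutant germlines and 10.44 ± 0.27 in wild-type germlines (interval -0.42 to 0.47). These intervals leave out a 1.5-fold change in either direction. him-3 on 175805_at averaged 11.11 ± 0.34 in mutant germlines and 11.21 ± 0.11 in wild-type germlines (interval -0.58 to 0.37), and on 180696_s_at 11.49 ± 0.08 in mutant germlines and 11.22 ± 0.39 in wild-type germlines (interval -0.25 to 0.79). syp-2 averaged 10.67 ± 0.62 in mutant germlines and 10.60 ± 0.23 in wild-type germlines (interval -0.76 to 0.89), which does not exclude a change of 1.5-fold. None of the probe sets of the other central region, cohesin, pairing and recombination genes was called in germlines, and their list medians were 0.43, 0.19, -0.04 and 0.03. The germ cell and maternal lists had medians of -0.21 and -0.31 there, with 0 called. Of all probe sets, 0.0696% were called higher and 0.371% lower in germlines. Of 9 gonadal sheath probe sets (median -0.03, 4 means higher) 1 was called lower, beside 0.371% of all. It was that of the gap junction gene inx-8, which fell by 2.67 (SE 0.21, adjusted p = 0.214 from limma).

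In wild-type animals 7 of 9 probe sets had every germline array above every embryo array, as did 8.73% of all probe sets. The exceptions were syp-1 and htp-3, each with a low value on wild-type germline replicate 1 that was called absent. The tables were normalized separately and the samples differ in temperature and labelling, so these levels are set side by side as a description. The median log2 value over all probe sets was 7.32 to 7.54 on embryo arrays but 6.18 to 6.36 on germline arrays. The 2 scales are thus offset, and a difference in level between tissues cannot be read as a difference in transcript amount. The wild-type germline mean exceeded the wild-type embryo mean by 2.80 and 2.37 for him-3 and 2.11 for syp-2, and by 0.44 to 1.04 for the other genes. The mutant embryo mean was 1.36 above the wild-type germline mean for syp-1 and 0.78 above it for htp-2. For syp-3 and htp-1 both means lay within 0.07 of each other, and for the remaining genes the mutant embryo mean was below the wild-type germline mean, by log2 differences of -0.24 for htp-3 to -1.52 for him-3.

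Probe sets whose values followed those of syp-1 most closely over the 12 arrays, after each tissue's mean was subtracted, were those of Y41D4B.11, polk-1, JC8.2, C18A3.3 and cku-80, with Pearson correlations of 0.96, 0.96, 0.95, 0.93 and 0.93 among 12678 probe sets compared. polk-1 encodes a translesion DNA polymerase and cku-80 a subunit of the Ku complex of DNA end joining. For the mean of the 8 genes the closest were vha-18, cyn-9, C28C12.12, a probe set annotated only as an aminotransferase, and T06A10.4, at 0.96 to 0.97. These correlations describe arrays that share genotype and stage differences, and carry no test. As only tissue means were subtracted, the separation of the germline arrays numbered 1 from the rest also enters them.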

How the data were processed

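The deposited tables hold log2 values that the authors made by rma in the affy package, which corrects background, normalizes by quantiles and summarizes probes, in embryos and germlines apart, annotated with WormBase WS190. They also hold the deposited detection calls (present, marginal or absent, another kind of value that was only counted) and the authors' fold changes and p-values, which were not used. Scanner intensities were not analysed here, and the number of arrays limits the precision.

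Each tissue was fitted alone in R 4.3.3 with limma 3.58.1 (lmFit and eBayes), mutant minus wild-type, on all 21541 probe sets. Calls needed at least 1.5-fold and a p-value of 0.01 or less before adjustment, as in the study's methods, and p-values were adjusted by Benjamini-Hochberg over all probe sets of a tissue. The labels do not say whether replicates are separate cultures, but the methods call them biological replicates. After subtraction of genotype means, arrays of the same number correlated at 0.246, 0.362 and 0.276 in embryos. Embryo arrays of different number correlated at -0.350 to 0.236. The highest of these, mutant array 3 with wild-type array 1, was close to the same-number values. In germlines the same-number correlations were 0.834, 0.363 and 0.392. There, mutant array 2 correlated more highly with wild-type array 3 (0.719), and mutant array 3 with wild-type array 2 (0.767). The germline values thus set the arrays numbered 1 apart but did not pair arrays 2 and 3 by number. Fits with the replicate number as a block were made with the other alternatives. The fit was also run on simulated data with independent noise on each array. That run had no deviation shared by arrays of the same number, so it does not cover the germline arrays numbered 1. Genes of the lists were matched by symbol or locus tag, and coh-4, dsb-2, rec-1, xnd-1 and unc-54 were not matched. Named genes are the members, the called genes of the lists and the 5 most correlated probe sets. The probe sets compared for correlation had a present call on at least 3 of the 12 arrays, of any group. The members, lists and rules were chosen with earlier results of these data known. Sequences were not analysed here. Arrays had 10826 to 11985 present calls in embryos and 5954 to 8209 in germlines. Python 3.11.15, pandas 2.3.3, numpy 2.4.6 and matplotlib 3.10.9 were used for tables and figures.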

Additional observations from a re-analysis of the deposited data

How the results depend on the processing

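In embryos, 4 of 9 probe sets were called, and 3 to 5 under the replicate block, an intensity trend, a filter on low values, median centring, quantile normalization, no fold threshold, a fold change of at least 2 and averaging of probe sets. Array weights, whose estimation stopped before convergence, gave 8, arrays numbered 1 left out gave 1, an adjusted p of at most 0.05 gave 1, and leaving out 1 array gave 1 (without wild-type replicate 3) to 8 (without mutant replicate 3). Over all probe sets, 1058 were called in embryos, against 1700 with the block, 3136 with array weights, 168 without arrays numbered 1, 57 by adjusted p, 1754 with no fold threshold, 337 at 2-fold and 445 to 2668 with 1 array left out. The share of calls that were higher was 68.8%, and 54.1% with the block, 52.7% with weights and 90.5% without arrays numbered 1. Median centring moved the median of all embryo changes to 0.10. No member changed direction in embryos under any alternative run.

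In germlines 0 of 9 were called, and 1 with quantile normalization (syp-3) or without arrays numbered 1 (syp-1). Over all probe sets 95 were called, against 276 with the block, 318 with weights, 428 without arrays numbered 1, 0 by adjusted p, 52 at 2-fold and 65 to 150 with 1 array left out. The share of calls that were higher was 15.8%, and 23.2%, 27.4% and 40.7% in the first 3 of these. Signs turned only for uncalled germline values. Array weights gave log2 changes of -0.18 for syp-2, -0.014 for him-3 (180696_s_at), -0.10 for htp-1 and -0.14 for htp-3. Without arrays numbered 1 they were -0.17 for syp-2, -0.095 for htp-1 and -0.11 for htp-3. With 1 array left out, changes ranged from -0.29 to 0.27 for syp-2, -0.29 to 0.049 for him-3 (175805_at), -0.13 to 0.12 for htp-1, -0.069 to 0.075 for htp-2, 0.68 to 2.17 for syp-1, -0.98 to 0.97 for htp-3 and -0.0028 to 0.51 for rec-8. With the replicate block, him-3 (175805_at) was gained in embryos, and no other member changed its call in either tissue. Causes were not tested. In germlines the errors of htp-3, rec-8 and syp-1 were wide without the replicate block (SE 1.17, 0.33 and 0.92) and narrower with it (0.16, 0.10 and 0.31).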
